A study of Mus musculus with 8 samples.

Results

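The genes described here encode proteins that bind single-stranded DNA: the SOSS complex, replication protein A (RPA) and the mitochondrial single-strand binding protein. They were taken by name from the platform annotation as Nabp1, Nabp2, Ints3, Inip, Rpa1, Rpa2, Rpa3 and Ssbp1. All 8 genes were on the array, with 14 of its 25697 probes, out of 16593 genes with a symbol. Their messages were read in granulocyte-macrophage progenitors (GMP) from double-knockout mice lacking Ssb1 and Ssb2 (DKO, 4 arrays) and from wild-type control mice (4 arrays). GMP are bone marrow progenitors of granulocytes and monocytes, and were sorted for c-Kit, CD34 and CD16/32 with little lineage marker or Sca-1. Both groups were female C57BL/6 mice, and neither the age of the mice nor the way the alleles were deleted is given in the labels. Each sample was hybridised in 1 colour to an Illumina MouseRef-8 v2.0 BeadArray. Nothing in the labels says whether each array stands for its own mouse, and the p-values therefore cover the spread among these arrays alone, which may be technical.

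Single-stranded DNA is exposed wherever the double helix is opened, at replication forks, at resected breaks and behind transcribing polymerases. RPA, a trimer of Rpa1, Rpa2 and Rpa3, coats it in replication and repair. SOSS pairs the scaffold Ints3 and the small subunit Inip with 1 of 2 related DNA-binding subunits, Ssb1, encoded by Nabp2, or Ssb2, encoded by Nabp1. Ints3 is also a subunit of Integrator, which cleaves nascent small nuclear RNAs and attenuates paused RNA polymerase II. Ssbp1 is a different protein from Ssb1 despite its name: it covers single-stranded mitochondrial DNA during its replication. The double knockout thus removes both alternative DNA-binding subunits of SOSS, and the comparison asks what the messages of its partners, of RPA and of Ssbp1 did in the progenitors.

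Mean raw intensity was 380, 547, 584 and 622 on DKO arrays 1 to 4, against 605, 736, 620 and 611 on control arrays 1 to 4, so DKO 1 was dimmer than the other 7 (exact two-sided permutation p = 0.114 for the group difference, n = 4 per group). Detected probes, those with a detection p-value under 0.05, ranged from 9774 to 11103 on DKO arrays and from 10740 to 11227 on control arrays. Of the 9 markers of sorted GMP on the array, 9 were detected on all 4 DKO arrays and 9 on all 4 control arrays. At a limma adjusted p under 0.05, 0 of the 9 were higher in DKO, 1 was lower and 8 were not called, with a median log2 difference of 0.11. The 1 that was lower was Cd34, a sort marker (log2 difference -1.42, SE 0.20, limma adjusted p = 0.000858). The summed level of the 9 markers ranged from 121550 to 130553 in DKO and from 108133 to 122274 in control. Each sum given here adds unlogged intensities, so it mostly follows the brightest probes of its list and need not reflect the others. Counts of markers called higher or lower stand beside 10.1% higher and 14.3% lower among all 7604 tested genes, 1 probe each. Of the markers of other cells, the summed level of 6 monocyte and dendritic genes was 2620 to 4580 in DKO and 8930 to 11884 in control, with Ccr2 undetected, and 5 of the 5 tested were lower. That of 9 mature neutrophil genes was 41639 to 54929 in DKO and 35689 to 38842 in control, with Mmp8 undetected, 2 of 6 tested higher and 0 lower. For 8 lymphoid genes it was 904 to 1140 in DKO and 1472 to 1933 in control, with Cd3e, Dntt and Pax5 undetected and 2 of 2 tested lower. The sums of the erythroid and megakaryocyte (7 genes, Gata1 undetected, 2 of 6 tested lower), stem cell (5 genes, Hlf and Slamf1 undetected, 0 of 2 tested past the threshold) and basophil and mast cell lists (6 genes, 0 of 6) overlapped between the groups. Testing needed detection on at least 4 of the 8 arrays, and some genes counted as lower met this through control. Rag1 (lymphoid), Slc4a1 and Epor (both erythroid) were detected on 0 DKO and 4 control arrays, and Klf4 (monocyte) on 1 and 4. Their lower calls therefore partly follow from the filter. The part of these shifts in cell markers in the results that follow was not tested. In such bulk samples, fewer cells of a type and less RNA per cell cannot be told apart.

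Levels are log2 intensities after background correction and quantile normalization, and differences are DKO minus control on that scale. A difference passed the threshold at a limma p under 0.05 after Benjamini-Hochberg adjustment over all 10856 probes detected on at least 4 of the 8 arrays. Of the 14 probes, 13 could be tested, and they stood for 7 of the 8 genes. Among them 2 rose, 1 in Ints3 and 1 in Ssbp1, 1 fell, in Nabp2, and 10 did not pass. These 3 of 13 are 23.1%, close to the 22.7% of all tested probes that passed (10.4% higher and 12.4% lower). DKO and control did not overlap for 4 of the 13 probes, 3 of them higher and 1 lower in DKO, which is 30.8%, beside 27.6% of all tested probes (13.1% higher and 14.5% lower). Over the 13 probes the log2 difference had a median of -0.04, and over all tested probes one of -0.01. Levels of different probes are not set against each other, because each binds its target with its own strength.

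**Figure D1:**
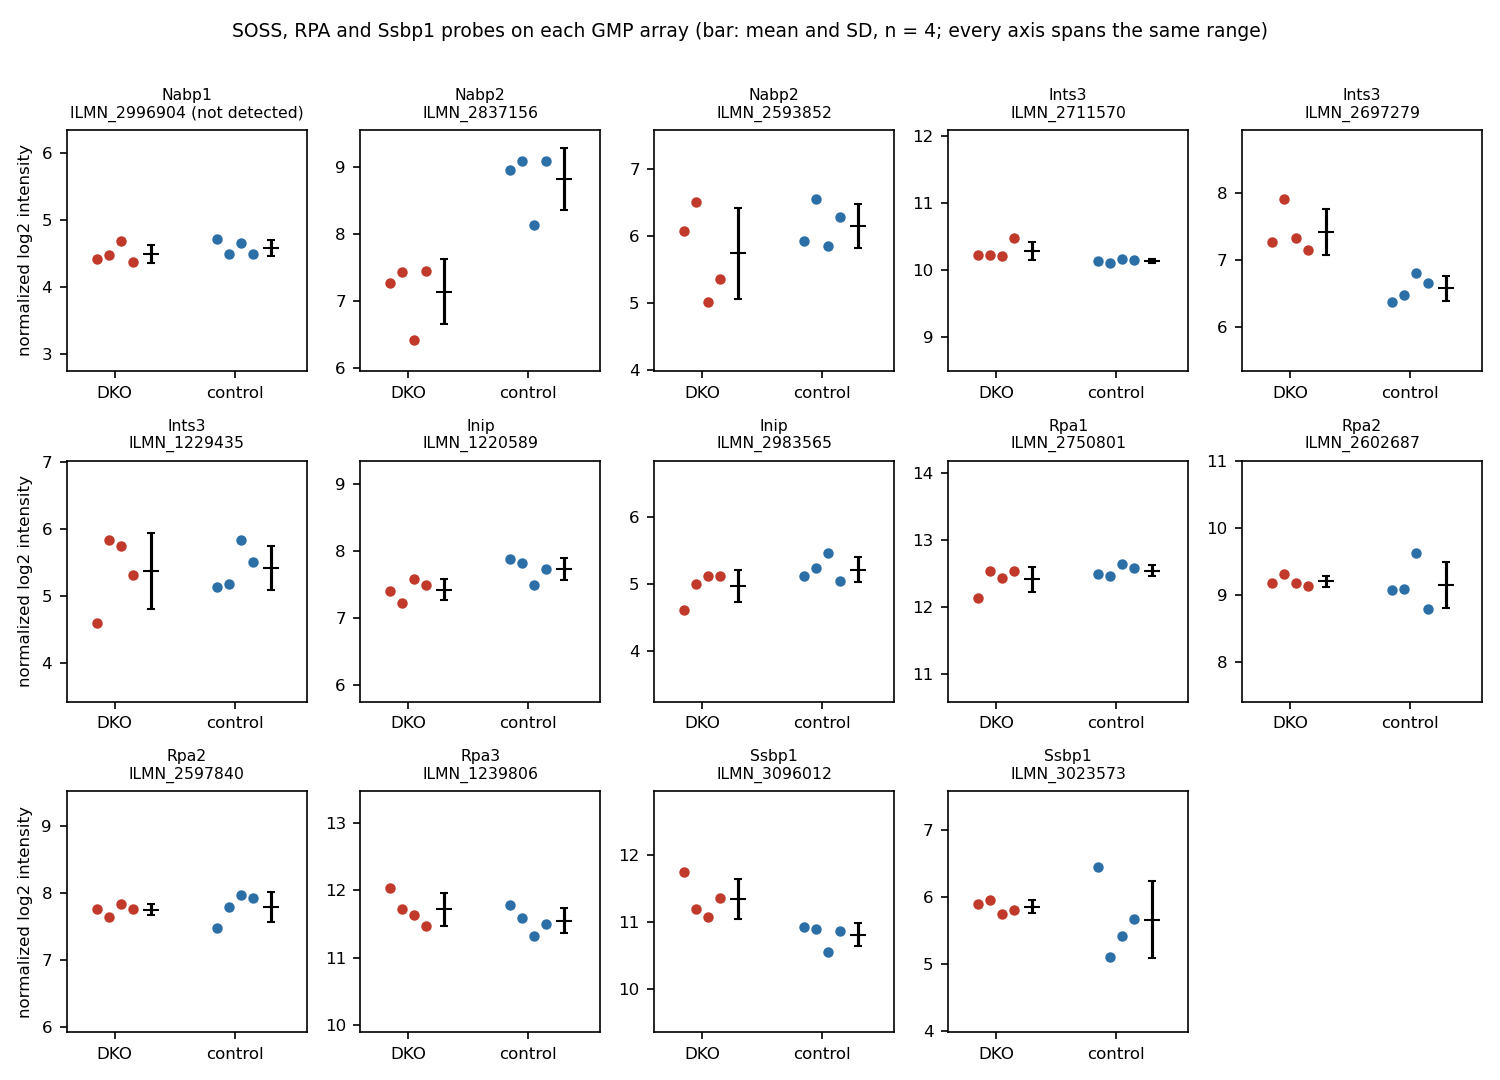
Normalized log2 intensity of each of the 14 probes, with 1 panel per probe, the 4 DKO arrays (red) left of the 4 control arrays (blue), and the mean with its SD beside each group. Every panel spans the same number of log2 units. The brighter Nabp2 probe lies lower on all 4 DKO arrays, a dimmer Ints3 probe and the brighter Ssbp1 probe lie higher, and the RPA probes overlap.

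Nabp2, which encodes the deleted Ssb1, had the largest change of the 13 probes. Its brighter probe, ILMN_2837156, had levels of 7.27, 7.43, 6.42 and 7.45 on DKO arrays 1 to 4, against 8.96, 9.09, 8.13 and 9.10 on control arrays 1 to 4. All 4 DKO arrays lay below all 4 control arrays, and array 3 was the lowest of each group. The mean was 7.14 ± 0.49 in DKO and 8.82 ± 0.46 in control (SD, n = 4 each), a 3.20-fold fall with a 95% interval from 2.11 to 4.88 (log2 difference -1.68, SE 0.27, limma adjusted p = 0.00198). By size, 0.645% of all tested probes had a difference as low or lower. The probe was still detected on all 4 DKO arrays, at raw intensities of 157, 265, 190 and 296. The corresponding control intensities were 621, 924, 455 and 700.

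The dimmer Nabp2 probe, ILMN_2593852, did not pass the test. It read 6.08, 6.51, 5.01 and 5.36 in DKO and 5.92, 6.56, 5.86 and 6.28 in control, and the groups overlapped. DKO 3 and DKO 4 lay below every control array, while DKO 1 and DKO 2 lay within the control range. Its log2 difference of -0.41 (SE 0.30, 95% interval -1.08 to 0.26) did not pass (limma adjusted p = 0.355), and it was detected on 3 of 4 DKO arrays and on 4 of 4 control arrays. Within an array, the log2 ratio of the brighter to the dimmer probe averaged 1.40 ± 0.50 in DKO and 2.67 ± 0.33 in control (SD, n = 4 each). That change of -1.27 had p = 0.0286, the smallest that an exact two-sided permutation over 70 relabellings can give, and 0.0743 after adjustment over 13 pairs of probes. The dimmer probe was just short of detection on DKO 3, and without that array the change was also -1.27. The size of the dimmer probe's difference depended on the processing. It was -0.11 with the authors' processed values (limma adjusted p = 0.477), -0.13 with no background correction at all, -0.20 after normexp without control probes, and between -0.67 and -0.17 with 1 array left out, the smallest without DKO 3 (limma adjusted p = 0.691). It passed with array weights (-0.80, limma adjusted p = 0.0458) and when medians rather than quantiles aligned the arrays (-0.82, limma adjusted p = 0.0398), an alignment that moved the median difference of all tested probes to -0.40. Where either probe lies relative to the deleted part of the gene is not known here.

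Nabp1, which encodes the deleted Ssb2, could not be assessed. Its single probe had raw intensities of 105, 128, 132 and 123 on the DKO arrays, against 139, 141, 137 and 129 on the control arrays. The detection p-values were 0.698, 0.561, 0.164 and 0.827 in DKO and 0.158, 0.469, 0.194 and 0.476 in control, so it was not above background on any of the 8 arrays. No fold change is given, and this probe checks neither the deletion of Ssb2 nor its level in wild-type GMP.

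The partners of Ssb1 and Ssb2 in the complex did not fall with Nabp2 in a way that passed the test. Ints3, the scaffold, was measured by 3 probes. The brightest, ILMN_2711570, read 10.23, 10.23, 10.21 and 10.49 in DKO and 10.13, 10.10, 10.17 and 10.16 in control. All 4 DKO arrays were higher, and the control arrays had an SD of only 0.03, but the log2 difference of 0.15 (SE 0.12, 95% interval -0.11 to 0.41) did not pass (limma adjusted p = 0.400).

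The middle Ints3 probe, ILMN_2697279, rose in DKO. It read 7.27, 7.91, 7.33 and 7.14 on the DKO arrays, against 6.37, 6.48, 6.80 and 6.65 on the control arrays, and the groups did not overlap. The mean was 7.41 ± 0.34 in DKO and 6.58 ± 0.19 in control (SD, n = 4 each). This was a 1.79-fold rise, with a log2 difference of 0.84 (SE 0.18, 95% interval 0.44 to 1.24, limma adjusted p = 0.00858). The third probe, ILMN_1229435, was near background and was detected on 3 of 4 DKO arrays and on 4 of 4 control arrays. It averaged 5.38 ± 0.56 in DKO and 5.42 ± 0.33 in control (SD, n = 4 each), and the groups overlapped (log2 difference -0.04, 95% interval -0.63 to 0.55).

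Only 1 of the 3 Ints3 probes passed. The log2 ratio of the brightest to the middle probe was lower by 0.69 in DKO, with the smallest exact two-sided permutation p of 0.0286, and did not pass after adjustment over 13 pairs (0.0743). Ratios to the dimmest probe are not interpreted, since it was not above background on DKO 1, but they count among the 13 pairs. The rise of the middle probe was smaller with the authors' processed values (0.42, limma adjusted p = 0.0139) and with no background correction (0.44, limma adjusted p = 0.0123). With arrays aligned by medians it was 0.31 and did not pass (adjusted p = 0.438), while the median difference over all tested probes became -0.40, and the brightest Ints3 probe turned to -0.28.

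Inip, the small subunit of SOSS, was lower on average without passing. Its brighter probe, ILMN_1220589, read 7.41, 7.22, 7.58 and 7.49 in DKO and 7.88, 7.82, 7.49 and 7.74 in control. Control 3 lay within the DKO range, and the other 3 control arrays lay above it. The log2 difference was -0.31 (SE 0.14, 95% interval -0.61 to -0.01, limma adjusted p = 0.128), and it was smaller with the authors' processed values (-0.18, limma adjusted p = 0.111) and with no background correction (-0.19, limma adjusted p = 0.116). Of the settings run, it passed only with arrays aligned by medians (-0.85, limma adjusted p = 0.0275), where the median over all tested probes was -0.40. The other probe, detected on 2 of 4 DKO and 3 of 4 control arrays, differed by -0.25 (SE 0.16, limma adjusted p = 0.278).

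RPA messages showed no change past the threshold. Rpa1, the large DNA-binding subunit, had levels of 12.14, 12.54, 12.43 and 12.54 in DKO, against 12.49, 12.46, 12.63 and 12.58 in control. The groups overlapped, with DKO 1 the lowest array, and the log2 difference was -0.13 (SE 0.13, 95% interval -0.42 to 0.17, limma adjusted p = 0.521). Rpa2, the subunit that is phosphorylated after DNA damage, read 9.17, 9.31, 9.18 and 9.12 in DKO and 9.08, 9.09, 9.62 and 8.78 in control by its brighter probe. The DKO values lay inside the control range, and the log2 difference was 0.06 (SE 0.17, 95% interval -0.32 to 0.43). The other Rpa2 probe differed by -0.04 (SE 0.14, 95% interval -0.35 to 0.27) and overlapped too. Rpa3, the smallest subunit, read 12.04, 11.73, 11.63 and 11.47 in DKO and 11.78, 11.60, 11.32 and 11.50 in control. Its log2 difference was 0.17 (SE 0.16, 95% interval -0.18 to 0.52, limma adjusted p = 0.475). Each interval is for its own probe, and a true change of any size inside it remains compatible with these arrays.

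Ssbp1 was higher in DKO by its brighter probe, ILMN_3096012. Its levels were 11.76, 11.21, 11.08 and 11.36 on the DKO arrays, against 10.94, 10.91, 10.56 and 10.87 on the control arrays. The groups did not overlap, and DKO 1 was the highest and control 3 the lowest array. The mean was 11.35 ± 0.30 in DKO and 10.82 ± 0.18 in control (SD, n = 4 each). This was a 1.45-fold rise, with a log2 difference of 0.53 (SE 0.17, 95% interval 0.16 to 0.90, limma adjusted p = 0.0430). This call was close to the threshold. It was lost without DKO 1 (0.40, adjusted p = 0.0713), without DKO 4 (0.53, 0.0793) and without control 1, 2, 3 or 4 (0.57, 0.56, 0.45 and 0.55, with adjusted p of 0.0718, 0.0822, 0.111 and 0.0774). It was also lost with arrays aligned by medians (0.20, adjusted p = 0.608). The dimmer Ssbp1 probe, detected on 4 of 4 arrays in both groups, averaged 5.85 ± 0.09 in DKO and 5.66 ± 0.57 in control (SD, n = 4 each) and did not pass (log2 difference 0.19, SE 0.24, limma adjusted p = 0.605).

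**Figure D2:**
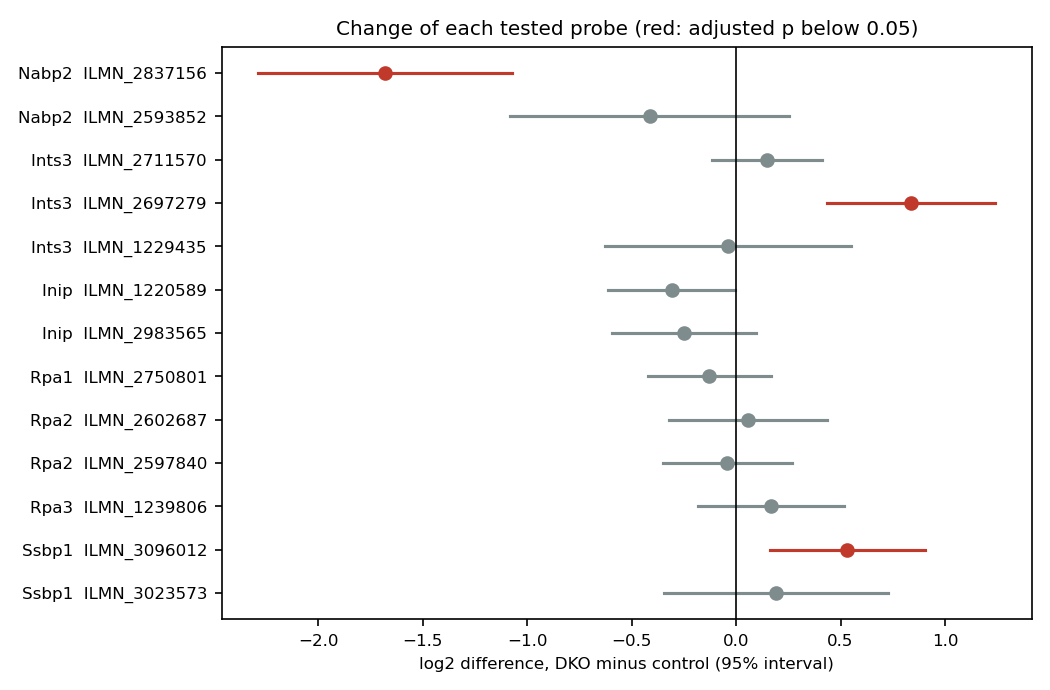
Log2 difference, DKO minus control, of each of the 13 tested probes with its 95% interval from limma. The Nabp2 probe ILMN_2837156 lies at -1.68, Ints3 ILMN_2697279 at 0.84 and Ssbp1 ILMN_3096012 at 0.53 (red, past the threshold), and the intervals of the other probes (grey) mostly span 0, with Inip ILMN_1220589 just short of it.

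The windows around the starts of the 2 genes with a probe that rose, Ints3 and Ssbp1, are shown to compare what lies there. Each covers 250 bases before to 50 after the start in RefSeq (build GRCm38.p6), written along the gene's strand. Capitals mark matches on either strand to 1 of 7 motifs: the CCAAT box (CCAAT), the GC box (GGGCGG), the ETS core (CCGGAAG), an NRF1 site (GCGCATGCG), the interferon-stimulated response element core, an ATF4 composite element (TGATGNAAT) and an E2F site (TTTGGCGC). The motifs do not overlap in either window.
Ints3, chr3:90433587-90433886, minus strand: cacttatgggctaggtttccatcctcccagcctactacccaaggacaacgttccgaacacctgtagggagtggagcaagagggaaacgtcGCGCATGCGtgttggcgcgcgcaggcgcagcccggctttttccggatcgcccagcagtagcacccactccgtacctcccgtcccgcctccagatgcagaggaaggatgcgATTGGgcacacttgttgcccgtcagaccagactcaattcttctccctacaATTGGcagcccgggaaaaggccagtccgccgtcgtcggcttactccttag
Ssbp1, chr6:40471218-40471517, plus strand: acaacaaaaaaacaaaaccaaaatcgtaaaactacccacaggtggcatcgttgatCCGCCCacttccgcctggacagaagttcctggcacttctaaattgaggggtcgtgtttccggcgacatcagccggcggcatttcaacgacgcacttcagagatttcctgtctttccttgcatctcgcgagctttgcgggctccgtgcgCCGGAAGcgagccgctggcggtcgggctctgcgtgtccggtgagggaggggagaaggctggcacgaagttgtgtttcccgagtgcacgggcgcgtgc
The Ints3 window held 2 CCAAT boxes, at -50 and 1 from the start, and 1 NRF1 site at -160. That of Ssbp1 held 1 GC box at -195 and 1 ETS core at -47, and no motif was shared between them. Among all 32851 such windows, 37.4% held a CCAAT box, 35.7% a GC box, 8.86% an ETS core, 1.75% the NRF1 letters, 3.44% the interferon element, 0.965% the ATF4 element and 0.514% the E2F letters. All 8 genes had a window, 10 in all with 3 for Nabp2. The interferon letters occurred once, in 1 of the 3 Nabp2 windows, and the ATF4 and E2F letters in 0 of 10. These matches describe the letters and say nothing of binding.

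Ratios between subunits of a complex within an array do not depend on a constant scaling of that array. The log2 ratio of Nabp2 to Ints3, each by its brightest probe, averaged -3.15 ± 0.44 in DKO and -1.32 ± 0.48 in control (SD, n = 4 each), lower by 1.83 in log2 units on average. The ratio of Nabp2 to Inip was -0.28 ± 0.60 in DKO and 1.09 ± 0.32 in control (SD, n = 4 each). Both changes separated the groups completely, with the smallest exact two-sided permutation p of 0.0286 and 0.0743 after adjustment. Ints3 to Inip averaged 2.86 ± 0.18 in DKO and 2.41 ± 0.19 in control (SD, n = 4 each; exact permutation p = 0.0571, adjusted p = 0.124). Among the RPA subunits, the ratio changed by -0.18 for Rpa1 to Rpa2, -0.30 for Rpa1 to Rpa3 and -0.11 for Rpa2 to Rpa3, with exact permutation p of 0.371, 0.343 and 0.800. In all, 5 of 13 pairs reached the smallest p, among them the ratio of the middle to the dimmest Ints3 probe. For any to pass after adjustment, 8 would have had to reach it, so this design could not call them.

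**Figure D3:**
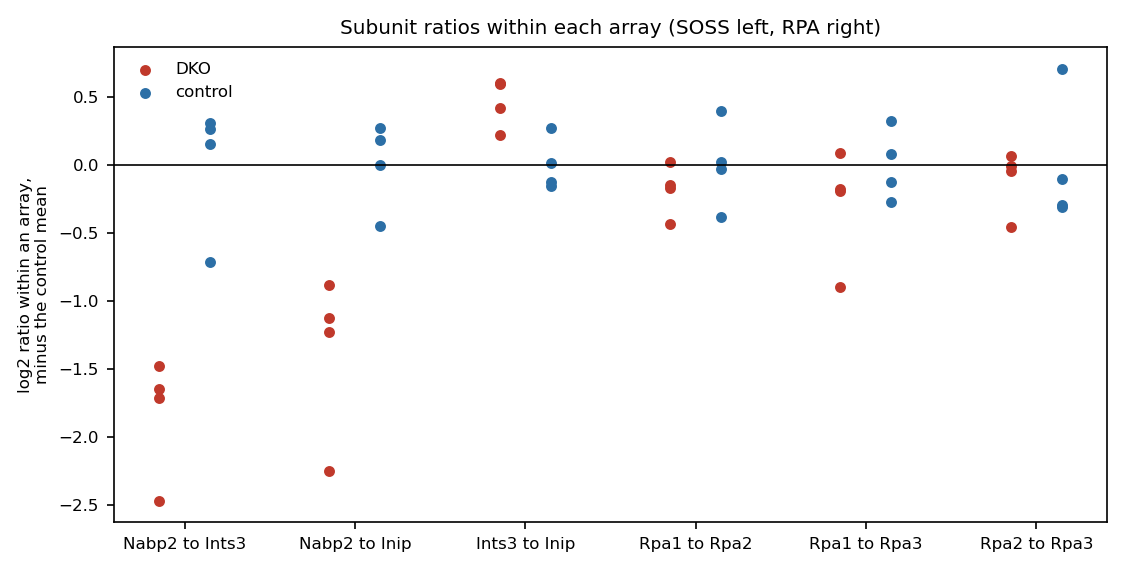
Log2 ratio of 2 subunits on each array, minus the mean ratio of the 4 control arrays, for the 3 SOSS pairs and the 3 RPA pairs, with DKO (red) left of control (blue). The Nabp2 ratios of the DKO arrays lie below those of all control arrays, and the RPA ratios of the groups overlap.

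Genes that work with these proteins were counted next, each by its brightest tested probe, beside 10.1% higher and 14.3% lower among all 7604 tested genes. Of 33 tested partners at single-stranded and broken DNA, such as the ATR, resection and recombination factors, 0 rose, 3 fell and 30 did not pass, with a median log2 difference of -0.13 beside -0.03 for all tested genes. At an unadjusted limma p under 0.05, 4 were higher and 7 lower. The Werner helicase gene Wrn measured 8.01 ± 0.18 in DKO and 8.94 ± 0.29 in control (SD, n = 4 each; log2 difference -0.93, limma adjusted p = 0.00331). Zranb3, a translocase that reverses stalled forks, measured 7.25 ± 0.36 in DKO and 8.21 ± 0.04 in control (SD, n = 4 each; -0.96, limma adjusted p = 0.00331). Primpol, which reprimes stalled forks, fell by 0.65 on the log2 scale (limma adjusted p = 0.0218), and the fourth by p, the recombination gene Rad51d, differed by 0.52 without passing (limma adjusted p = 0.0524). The number that fell was 6 without DKO 1 or with array weights, 5 with the replicate number as a block, 11 after alignment by medians, and 2 without DKO 4, control 1 or control 2. With the authors' processed values or either other background correction, 3 rose and 4 fell. The number that rose was 2 without DKO 3, with the trended variance, or with a detection p under 0.01 required on all 8 arrays. It was 1 without control 4, with array weights, or with no filter on dim probes.

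Of 6 other OB-fold and single-strand binding genes, 0 rose and 1 fell, with a median of -0.04 (1 higher and 2 lower at an unadjusted limma p under 0.05). Ctc1, a subunit of the telomeric CST complex that resembles RPA, fell by 0.60 (SE 0.15, limma adjusted p = 0.0142). The LDB-binding cofactor Ssbp4, the shelterin gene Acd and Ssbp2 differed by 0.47, -0.31 and 0.19 and did not pass, though Acd also fell with the authors' processed values, with either other background correction and with the trended variance, making 2. Without DKO 3, Ssbp4 passed as higher.

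Of 14 tested genes that maintain mitochondrial DNA beside Ssbp1, 0 rose, 2 fell and 12 did not pass, with a median of -0.09 (1 higher and 4 lower at an unadjusted limma p under 0.05). The 2 that fell were 14.3% of the list, the same share as among all tested genes. Both supply deoxynucleotides to mitochondria. Rrm2b, a ribonucleotide reductase subunit gene on this list named outside the rule, went the other way, by 0.42, without passing (limma adjusted p = 0.0982). Dguok, deoxyguanosine kinase, measured 8.01 ± 0.37 in DKO and 8.97 ± 0.26 in control (SD, n = 4 each; log2 difference -0.96, limma adjusted p = 0.00690). Tk2, mitochondrial thymidine kinase, fell by 0.73 (SE 0.14, limma adjusted p = 0.00540). The mitochondrial topoisomerase gene Top1mt and the methyltransferase gene Tfb1m differed by -0.37 and -0.46 without passing. With arrays aligned by medians 5 fell.

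Of 9 other tested Integrator subunits, 2 rose, 0 fell and 7 did not pass, with a median of 0.15 (3 higher and 0 lower at an unadjusted limma p under 0.05). Ints13 measured 9.59 ± 0.12 in DKO and 8.96 ± 0.05 in control (SD, n = 4 each; log2 difference 0.63, limma adjusted p = 0.00389), and Ints5 rose by 0.47 (SE 0.14, limma adjusted p = 0.0301). Ints14 and Ints9 differed by 0.38 and 0.29 and did not pass, though Ints14 did with no background correction, the authors' processed values or array weights, making 3 that rose. Only 1 rose, Ints13, without DKO 2, without DKO 4 or without any 1 of the 4 control arrays, and with arrays aligned by medians 0 rose and the median was -0.35.

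Of 28 tested replication fork genes, 1 rose, 4 fell and 23 did not pass, with a median of -0.08. The ribonucleotide reductase subunit gene Rrm2 rose by 0.84 (SE 0.16, limma adjusted p = 0.00376). DNA ligase gene Lig1 fell by 0.75, the polymerase gene Pold1 by 0.68 and the licensing factor gene Cdt1 by 0.52 (limma adjusted p = 0.00423, 0.00757 and 0.0210). The polymerase gene Pole, named outside the rule to complete the 4, fell by 0.48 (limma adjusted p = 0.0254). With no background correction 3 rose and 5 fell, and with the authors' processed values 3 rose and 6 fell. At an unadjusted limma p under 0.05, 3 were higher and 6 lower. Without control 1 or without control 2, 2 fell, Pold1 and Lig1. After alignment by medians, 0 rose and 5 fell.

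The nearest tested genes around the deleted loci lay up to 13 genes away from Nabp2 and from 2 to 66 genes away from Nabp1. Of the 10 around Nabp2, 1 rose, 2 fell and 7 did not pass, beside 10.1% higher and 14.3% lower among all tested genes, and the adjacent tested genes Slc39a5 and Rnf41 differed by 0.22 and -0.01 (limma adjusted p = 0.467 and 0.977). The citrate synthase gene Cs, 7 genes away, rose by 0.48 (SE 0.13, limma adjusted p = 0.0246), the myosin light chain gene Myl6 fell by 0.63 and the extended synaptotagmin gene Esyt1 fell by 0.70 (limma adjusted p = 0.0230 and 0.00461). Around Nabp1, 1 of 10 rose and 0 fell. Inpp1, an inositol phosphatase gene 25 genes away, was higher by 0.95 (SE 0.19, limma adjusted p = 0.00567) and was detected on 4 DKO arrays and 1 control array.

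The pattern over the 8 arrays most like that of the brighter Nabp2 probe was found by the root-mean-square distance between probes, each centred on its own mean. The nearest genes were Irf5, an interferon regulatory factor, Cyp4f18, a leukotriene hydroxylase gene, and Ly86, which encodes a partner of the receptor RP105, at 0.32, 0.35 and 0.38 log2 units. Their log2 differences between DKO and control were -1.60, -1.32 and -1.91, and Ly86 is also on the monocyte and dendritic list. The genes were picked for likeness over the same 8 arrays, so falls like that of Nabp2 follow from the choice and are not a separate result. For the Ints3 probe that rose, the nearest were Pabpc4, Jak3 and Yif1a at 0.13, 0.13 and 0.14.

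**Figure D4:**
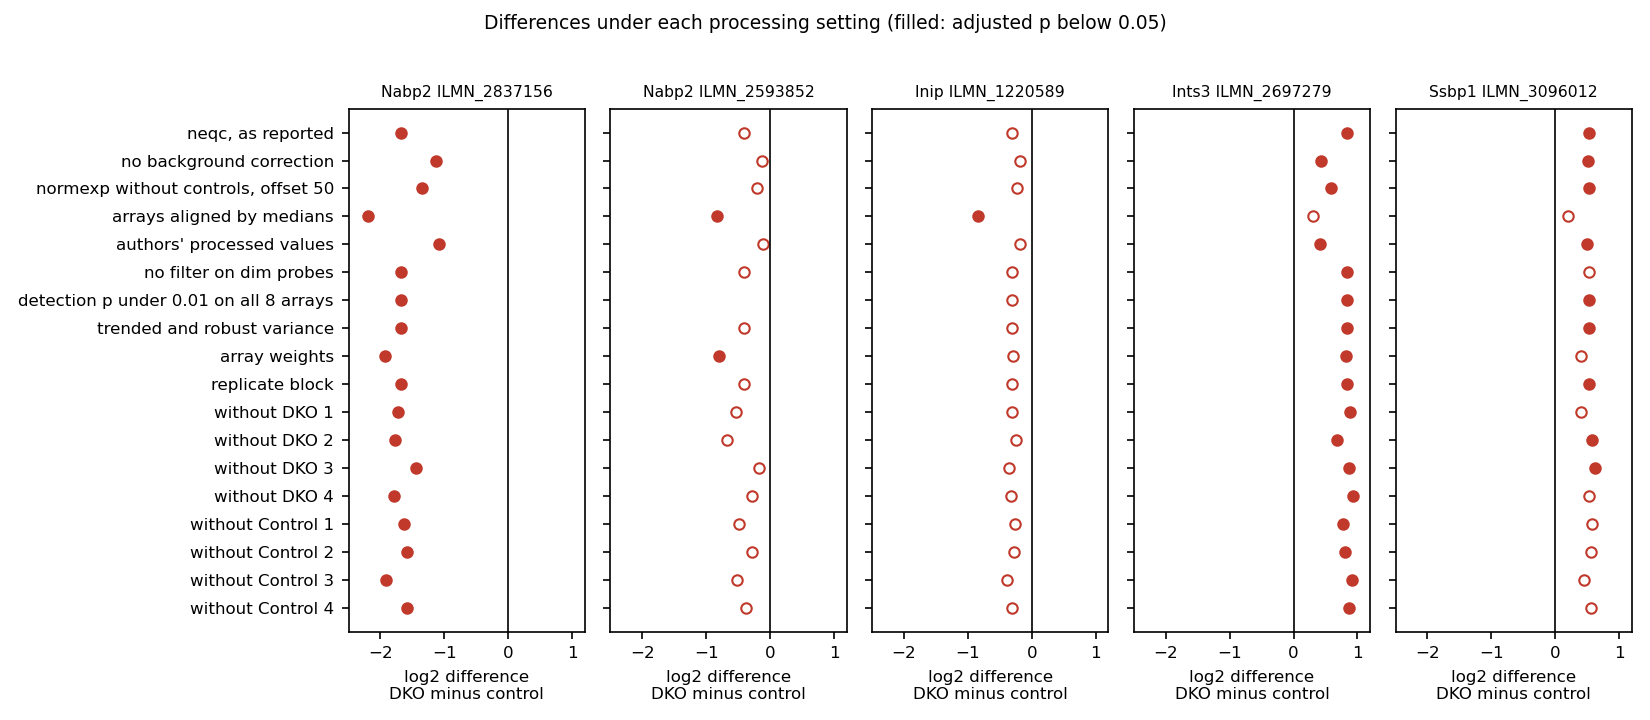
Log2 difference, DKO minus control, of 5 probes (columns) under each processing setting and with each array left out (rows), with filled points past the threshold and no point where the probe was not tested. The Nabp2 probe ILMN_2837156 is filled in every row, Ints3 ILMN_2697279 in every row but the alignment by medians, and Ssbp1 ILMN_3096012 is open in 9 rows.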

How the data were processed

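Granulocyte-macrophage progenitors were profiled on 8 arrays, 4 DKO and 4 control. The deposited table holds 1 raw bead intensity per probe and array, which its values show to be unnormalized and without background subtraction. A detection p-value stands beside each intensity, per the file headers, by a method of the authors that no source states. The submitters' processing notes name GenomeStudio, with no version or role. The authors' processed log2 table followed quantile-normalized log2 intensities in its differences between arrays (r 0.999 over probes, slopes 0.961 to 0.966), with column medians from -0.0044 to -0.0005. Its centre stays unknown, and it was used as an alternative only.

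Probes took their symbols from the platform annotation (23978 with 1 symbol, 0 with several, 1719 with none), updated by gene ID through RefSeq of GRCm38.p6 (23962 matched). The array names no genome build, so only promoter windows carry coordinates. R 4.3.3 and limma 3.58.1 were used, with neqc for the intensities (normexp with controls inferred from detection p-values, offset 16, quantile normalization). Groups were compared with lmFit and eBayes without covariates. Within-array ratios and array measures used exact two-sided permutation tests. The procedure was tested on simulated data.

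The members and lists were chosen with earlier results of these data known. Every member was named with all its probes, and from each pathway list up to 4 genes with the smallest p. Of the cell marker lists, which followed the same rule, counts are given, with Cd34, Rag1, Slc4a1, Epor and Klf4 named. Neighbours are the 5 nearest tested genes on each side in RefSeq order, and likeness names the 3 nearest genes. Alternatives were the background correction, alignment by medians, the authors' values, the filter on dim probes, the variance model, weighting of arrays, a block for the replicate number and leaving out each array. In the text, median alignment replaces quantile normalization. The number of arrays limits the precision.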

Additional observations from a re-analysis of the deposited data

Results flagged for a closer look

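Among 28 sets of 4 arrays, 14 probes in 2 groups each, 3 held 1 array far from the other 3, where chance flags about 1 in 20. For the brighter Nabp2 probe, control 3 read 8.13, and the next control array 8.96. Without it the log2 difference was -1.91 (limma adjusted p = 0.00157). For the brightest Ints3 probe, DKO 4 read 10.49, and the next DKO array 10.23. Without DKO 4 the log2 difference was 0.082 in place of 0.15 (limma adjusted p = 0.670). For the brighter Ssbp1 probe, control 3 read 10.56, and the next control array 10.87, and without control 3 the call was lost (log2 difference 0.45, limma adjusted p = 0.111).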

How the results depend on the processing

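The fall of Nabp2 at its brighter probe passed in every setting run, with log2 differences from -2.20 with arrays aligned by medians to -1.09 with the authors' processed values, and from -1.91 to -1.44 with 1 array left out. The number of probes past the threshold was 2469, 2420 with the replicate block, and between 1529 (without control 2) and 2515 with 1 array left out, where 665 to 1161 were higher and 864 to 1354 lower. Without control 2 they were 665 higher and 864 lower, and without control 1, 742 were higher. With arrays aligned by medians 148 were higher and 2335 lower, 5.96% higher against 45.6%, and the median difference over all tested probes became -0.40. Between 2 and 3 of the probes described here passed in each setting. The rise of Ints3 ILMN_2697279 was lost with arrays aligned by medians and in no other setting. That of Ssbp1 ILMN_3096012 was also lost with no filter on dim probes (adjusted p = 0.0727, over 25697 tests) and with array weights (0.41, adjusted p = 0.0527). Aligning by medians turned Ints3 ILMN_2711570 to -0.28, Rpa2 ILMN_2602687 to -0.45, Rpa3 to -0.12 and Ssbp1 ILMN_3023573 to -0.11, and the ratios Rpa1 to Rpa2 to 0.054 and Ints3 ILMN_2711570 to ILMN_1229435 to -0.12. Ints3 ILMN_1229435 turned to 0.17 with array weights and ranged from -0.20 to 0.22 with 1 array left out. In the same way Rpa2 ILMN_2602687 ranged from -0.063 to 0.21 and Rpa2 ILMN_2597840 from -0.15 to 0.018. So did the ratios Rpa2 to Rpa3 (-0.22 to 0.12), Ints3 ILMN_2711570 to ILMN_1229435 (-0.051 to 0.36), Inip to Inip (-0.22 to 0.021) and Rpa2 to Rpa2 (-0.067 to 0.20). The cause of these changes was not tested. No pair ratio passed after adjustment with either other background correction, median alignment, the authors' values or 1 array left out, the settings in which ratios were computed.

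Deviations of same-numbered arrays correlated at 0.19, 0.03, -0.11 and 0.20 over probes, and those of differently numbered arrays at -0.17 to 0.12. The shared numbers were not taken as pairs in the main fit, and these values do not settle whether they are. With the replicate number as a block the Nabp2 difference was -1.68 (SE 0.12), that of Ints3 ILMN_2697279 0.84 and that of Ssbp1 ILMN_3096012 0.53, with limma adjusted p of 0.000489, 0.0194 and 0.0330, and no call of a probe described here changed. The planned block by BeadChip could not be fitted, as the files name no slide. Probes near background (Nabp1, the dimmest Ints3, the second Inip, and the dimmer Nabp2 and Ssbp1 probes) limit what these arrays can show.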
